A study of Mus musculus with 6 samples.

Results

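Glycolysis splits glucose into pyruvate in the cytosol, and lactate dehydrogenase converts pyruvate to lactate and back. Several of its steps are catalysed by enzymes that often exist as isozymes, made from different genes and used to different extents by each tissue. Schwann cells (SCs), the glia of peripheral nerve, run glycolysis themselves and are known to pass lactate towards axons through the monocarboxylate transporter MCT1. The genes described here are 10 of the 59485 genes of the deposited mouse expression table, chosen by symbol: the hexokinases Hk1 and Hk2, glucose-6-phosphate isomerase (Gpi1), the phosphofructokinase subunits Pfkl (liver type) and Pfkp (platelet type), phosphoglycerate kinase Pgk1, pyruvate kinase Pkm, the lactate dehydrogenase subunits Ldha and Ldhb, and Slc16a1, which encodes MCT1. All 10 were among the 25802 genes that passed the filter on low values (a mean of at least 10 in at least 1 group), so none was lost.

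Sciatic nerves were taken at postnatal day 4 (P4) from 3 animals labelled control and 3 labelled mutant, with 1 library per animal. The mutant label stands for the genotype Ht-PA-Cre; Adar1fl/fl;R26R, in which a Cre active in neural crest cells removes floxed Adar1 (Adar), the gene of an RNA-editing enzyme, and the R26R allele carries a fluorescent reporter. The control libraries are labelled wild-type, a name that the study's methods give to Cre-negative Adar1fl/fl;R26R or Adar1fl/+;R26R animals, so floxed Adar1 and R26R were shared by both groups. In its skin experiments the study uses the word control also for heterozygous animals, which carry the Cre. Neural crest gives rise to SCs and endoneurial fibroblasts, whereas the whole nerve also holds endothelial, blood and immune cells that this Cre does not target. The values are reads per gene after size-factor scaling, called normalised reads below, on constitutive exon regions. They are not divided by gene length, so levels are compared between groups and not between genes.

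Each library held between 50938349 and 78250094 reads on genes. Adar itself went against its label, with 1602, 2066 and 1133 normalised reads in the control-labelled libraries and 11768, 9311 and 9773 in the mutant-labelled ones. The gene-level value does not separate the floxed exons from the rest of the transcript, so it does not check the deletion, and every direction below is between libraries as labelled. All 8 markers of myelinating SCs fell by an adjusted p of at most 0.05 in limma, by which 16% of all tested genes fell. Their summed level lay between 3800900 and 4669460 in control-labelled and between 102479 and 569701 in mutant-labelled libraries. Markers of skeletal muscle went the other way, summing to between 7984 and 38789 in control-labelled and between 50610 and 362397 in mutant-labelled libraries, with all 12 at least 2-fold higher, 11 of them at an unadjusted p of at most 0.05 and 9 at an adjusted p of at most 0.05. Of all tested genes, 13.9% rose at least 2-fold at that unadjusted p, and 19% rose by adjusted p (both limma). The 7 measured erythroid markers summed to between 55078 and 77130 in control-labelled and between 5151 and 15734 in mutant-labelled libraries. The 5 adipocyte markers summed to 2653, 40.6 and 617 in control-labelled libraries. Their sum was 9612 in mutant replicate 2 but 45.1 and 18.8 in mutant replicates 1 and 3. The marker counts that follow are by an adjusted p of at most 0.05 in limma, by which 19% of all tested genes rose and 16% fell. Schwann lineage markers summed to between 83590 and 87970 in control-labelled and between 31097 and 43616 in mutant-labelled libraries (6 of 8 fell), and fibroblast markers to between 1927150 and 2171770 and between 780695 and 1181320 (2 of 6 fell). Neuron markers summed to between 1137 and 1481 and between 3726 and 3836 (5 of 6 rose) and lymphocyte markers to between 106 and 230 and between 394 and 512 (3 of 8 tested rose, the log2 changes of the 8 running from -1.52 to 5.74). Of the rest, 3 of 8 macrophage markers rose and 2 fell, 2 of 7 endothelial markers rose, and none of the adipocyte, neutrophil or cell cycle markers passed, with 0 also at an unadjusted p of 0.05. The labels do not give the sex of the animals. Xist, which is expressed from the inactive X of females, read 7851, 0 and 6503 in control-labelled and 0, 9325 and 0 in mutant-labelled libraries, so mutant replicate 2 was the only mutant-labelled library with Xist. The part of these differences in the results below was not tested. In a bulk nerve, fewer cells of a type and less RNA per cell cannot be told apart.

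The stretches of 250 bases before the transcription start of 4 members are printed here, from RefSeq on GRCm38.p6, because Ldhb, Pfkp and Hk2 were the members that moved most and Ldha is the partner subunit of Ldhb. Capitals mark ACGTG, the core bound by hypoxia-inducible factors, or GCGTG, a related core, on either strand. The former is also part of CACGTG, the E-box that MYC and carbohydrate-response factors bind, so those searches overlap.
Ldha, chr7:46845554-46845803, + strand: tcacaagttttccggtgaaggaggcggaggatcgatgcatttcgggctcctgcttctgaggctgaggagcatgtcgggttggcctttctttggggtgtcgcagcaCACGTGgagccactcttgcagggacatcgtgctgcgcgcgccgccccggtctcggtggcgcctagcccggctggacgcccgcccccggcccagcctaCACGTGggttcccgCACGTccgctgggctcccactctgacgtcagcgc
Ldhb, chr6:142507958-142508207, - strand: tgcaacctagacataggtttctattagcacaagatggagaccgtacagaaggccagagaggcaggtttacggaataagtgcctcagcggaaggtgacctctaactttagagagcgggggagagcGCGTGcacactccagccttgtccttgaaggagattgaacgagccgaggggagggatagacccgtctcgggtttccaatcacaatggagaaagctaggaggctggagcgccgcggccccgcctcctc
Hk2, chr6:82774455-82774704, - strand: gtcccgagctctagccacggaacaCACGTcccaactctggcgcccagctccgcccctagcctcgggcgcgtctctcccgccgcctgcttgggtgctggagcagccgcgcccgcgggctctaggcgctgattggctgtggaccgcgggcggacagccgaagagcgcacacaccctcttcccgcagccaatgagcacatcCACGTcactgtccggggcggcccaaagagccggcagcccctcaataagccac
Pfkp, chr13:6648772-6649021, - strand: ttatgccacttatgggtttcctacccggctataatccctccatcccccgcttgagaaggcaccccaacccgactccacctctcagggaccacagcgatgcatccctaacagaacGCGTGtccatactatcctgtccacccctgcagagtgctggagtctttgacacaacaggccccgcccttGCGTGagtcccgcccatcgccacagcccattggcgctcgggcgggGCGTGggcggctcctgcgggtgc
Ldha has 2 RefSeq windows. The one printed adjoins the start of Ldha in the deposited table and held 3 capital stretches, 2 of them the longer CACGTG, whereas the other, at chr7:46846832-46847081, held 1 GCGTG and neither of the other motifs. There were 2 stretches in the Hk2 window, 3 in the Pfkp window and 1 in the Ldhb window. The 10 members had 13 RefSeq windows in all. ACGTG was found in 5 of the 13, against 16.6% of 32851 windows of the same length over the genome, GCGTG in 6 of 13 against 28.2%, and CACGTG in 2 of 13, those of Ldha and Slc16a1, against 6.02%. The member windows had a median GC content of 62.8% and all windows 52.4%. A match of letters is a description and not evidence of binding.

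Across the 10 members, the lactate dehydrogenase subunit Ldhb was markedly lower in mutant-labelled nerves and the phosphofructokinase Pfkp and the hexokinase Hk2 were higher, while the remaining members moved by less than 2-fold. Under the study's rule, an unadjusted p of at most 0.05 and a change of at least 2-fold, 2 of 10 members rose and 1 fell, where 13.9% of all tested genes rose and 10.4% fell. Under a rule without a size limit, an adjusted p of at most 0.05 in limma (Benjamini-Hochberg over all tested genes), 6 members rose and 2 fell, against 19% and 16% of all tested genes. That split was 7 and 1 when libraries were scaled to the same total and 3 and 3 when they were scaled to the same 75th percentile. The 6 libraries did not overlap for 9 members, 7 being higher and 2 lower in every mutant-labelled library, against 25.9% and 23.3% of all tested genes. The median log2 change was 0.28 over the members and 0.03 over all tested genes. The adjusted calls of Hk1, Gpi1 and Pkm were lost when the replicate number was added as a block, which left 3 members called higher instead of 6, and those of the other members did not change with the block.

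**Figure D1:**
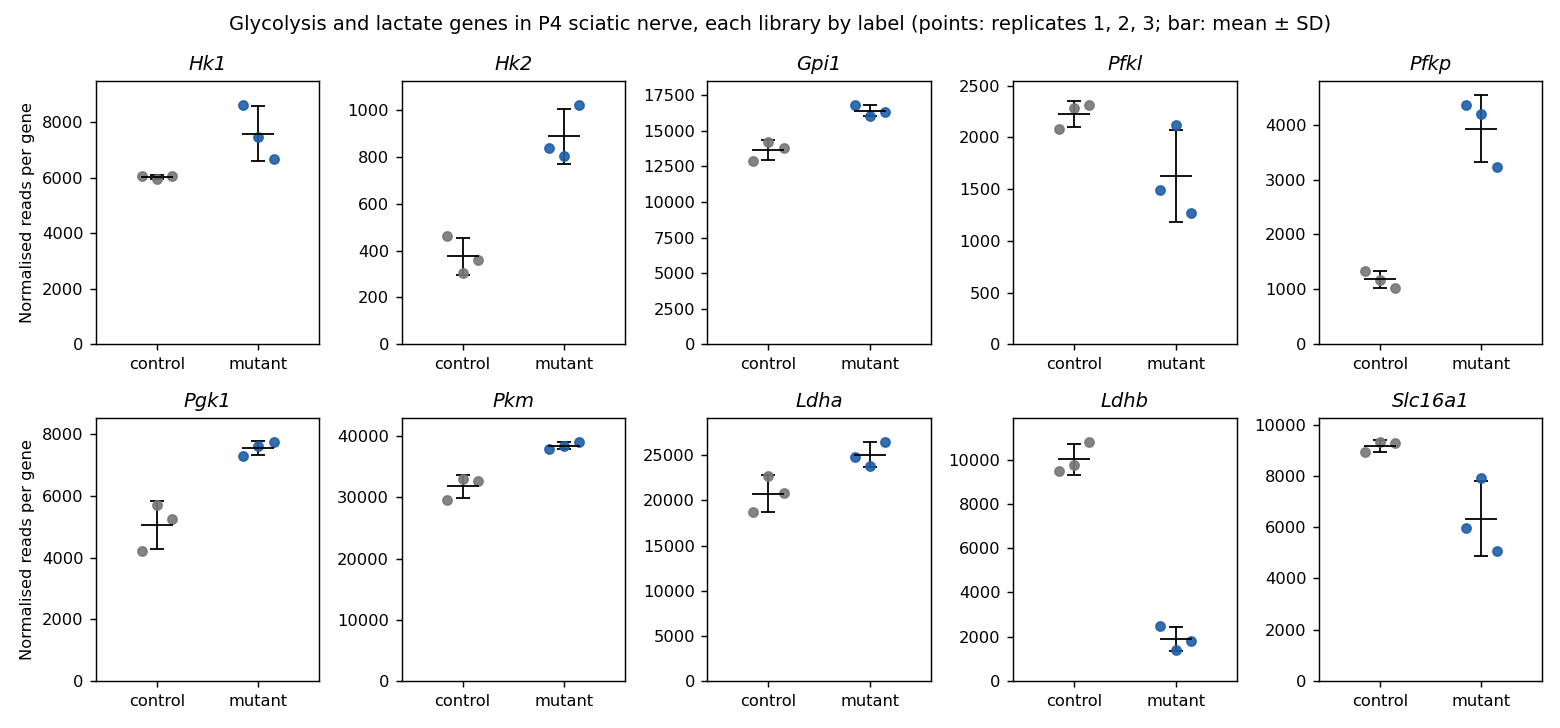
Normalised reads of each member (vertical axes, linear and starting at 0) in the 3 control-labelled and 3 mutant-labelled libraries, with points for replicates 1, 2 and 3 from left to right and a bar for mean ± SD. Ldhb lies between 9477 and 10821 in control-labelled and between 1408 and 2467 in mutant-labelled nerves, and Pfkl is the only member whose groups overlap.

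Hexokinases trap glucose in the cell as glucose-6-phosphate. Hk2, the inducible form, read 462, 306 and 361 in control-labelled libraries and 839, 807 and 1024 in mutant-labelled ones. Every mutant-labelled value was above every control-labelled one, and the means of 376 ± 79.0 and 890 ± 117 (SD, n = 3 each) differed 2.36-fold. The fitted log2 change of Hk2 was 1.25 ± 0.19 (SE), with an adjusted p of 0.00147 in limma. Hk2 is also the main hexokinase of skeletal muscle, and its values ranked the 6 libraries in the same order as the summed muscle markers, which were 38789, 7984 and 29454 in control-labelled and 113520, 50610 and 362397 in mutant-labelled libraries. The part of muscle in the Hk2 rise was not tested. Hk1, the form present in most tissues and in nerve, varied little among control-labelled libraries, with values of 6074, 5965 and 6047. The mutant-labelled values were 8625, 7464 and 6664. Its spread was thus wider in the mutant-labelled group, whose lowest value still exceeded all controls, and the log2 change of 0.32 ± 0.11 passed the test narrowly (limma, adjusted p = 0.0467). Leaving out any control-labelled library, or mutant replicate 1 or 2, ended the Hk1 call, with adjusted p values from 0.0864 to 0.128.

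Glucose-6-phosphate isomerase, encoded by Gpi1, turns the product of the hexokinases into fructose-6-phosphate. Gpi1 read 12878, 14234 and 13830 in control-labelled and 16822, 16072 and 16353 in mutant-labelled libraries, without overlap. The log2 change was 0.27 ± 0.08 (limma, adjusted p = 0.0333). Removing any 1 library ended this call as well, with adjusted p values between 0.0509 and 0.0842, although the change stayed between 0.23 and 0.30.

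Phosphofructokinase commits sugar to glycolysis and is built from liver, platelet and muscle subunits, which differ in how metabolites regulate them. Pfkp showed the largest rise of the members, from 1343, 1167 and 1032 in control-labelled to 4361, 4188 and 3226 in mutant-labelled libraries. Every mutant-labelled value was far above the controls, and the means of 1180 ± 156 and 3925 ± 611 differed 3.33-fold, a log2 change of 1.73 ± 0.15 (limma, adjusted p = 8.26e-05). Pfkl pointed the other way, with 2084, 2289 and 2314 against 1488, 2124 and 1273. Mutant replicate 2 lay within the control range while the other two mutant-labelled libraries lay below it, and the log2 change of -0.49 ± 0.18 missed the threshold (limma, adjusted p = 0.0682, 95% interval -0.90 to -0.07). Without mutant replicate 2, the log2 change of Pfkl was -0.69 with an adjusted p of 0.00641. The muscle subunit Pfkm, named here as the remaining subunit although it is no member, read 4505, 4228 and 4131 against 2283, 1575 and 3829 and fell by 0.84 on the log2 scale (limma, adjusted p = 0.0425), a call lost when any library but mutant replicate 3 was left out (adjusted p 0.0909 to 0.113). Without mutant replicate 3 the change of Pfkm was -1.18 with an adjusted p of 0.00356.

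Pgk1, an X-linked gene encoding the first enzyme of the route that yields ATP, read 4210, 5704 and 5249 in control-labelled and 7285, 7605 and 7756 in mutant-labelled libraries. The mutant-labelled values were close together and all above the controls. The means of 5054 ± 766 and 7549 ± 241 gave a log2 change of 0.59 ± 0.12 (limma, adjusted p = 0.00622), and this call held in every alternative tried. Pkm encodes the M1 and M2 forms of pyruvate kinase, which differ by an alternative exon and cannot be separated in a count over constitutive regions. Pkm rose from 29587, 33099 and 32727 to 37917, 38388 and 39132, a log2 change of 0.28 ± 0.08 (limma, adjusted p = 0.0329). The groups did not overlap, yet removing any 1 library raised the adjusted p to between 0.0547 and 0.0835.

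Lactate dehydrogenase is a tetramer of A subunits, which favour the making of lactate, and B subunits, which favour its use. Ldhb carried the largest change of all members, with 9477, 9783 and 10821 normalised reads in control-labelled nerves and 2467, 1408 and 1815 in mutant-labelled nerves. The means of 10027 ± 704 and 1897 ± 535 differed 5.29-fold, a log2 change of -2.44 ± 0.19 (limma, adjusted p = 4.24e-05), the 859th lowest change of the 25802 tested genes. Within the mutant-labelled group, Ldhb was lowest in replicate 2 and highest in replicate 1, the order that the summed myelinating SC markers also had. The part of the loss of myelinating SC RNA in this fall was not tested. Ldha read 18688, 22714 and 20853 against 24853, 23786 and 26516, so that all 3 mutant-labelled libraries were above the controls, but by little. Its log2 change of 0.27 ± 0.10 missed the threshold (limma, adjusted p = 0.0600, 95% interval 0.05 to 0.50). When the libraries were instead scaled to the same total, Ldha passed, with a log2 change of 0.44 and an adjusted p of 0.00541, under a scaling that moved the median of all tested genes to 0.19. Ldha also passed with the filter raised to a minimum mean of 50, which leaves its log2 change as it is.

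MCT1, encoded by Slc16a1, moves lactate, pyruvate and ketone bodies across the plasma membrane. Slc16a1 read 8909, 9332 and 9285 in control-labelled and 5961, 7933 and 5077 in mutant-labelled libraries. Controls were tightly grouped and the mutant-labelled values were all lower, replicate 2 least so. The means of 9175 ± 232 and 6324 ± 1462 gave a log2 change of -0.56 ± 0.15 (limma, adjusted p = 0.0209). This call was lost without control replicate 2 or 3 or without mutant replicate 1 or 3 (adjusted p 0.0586 to 0.0665) and at the same total (0.0666), and without mutant replicate 2 the change was -0.74 with an adjusted p of 0.00248. Mutant replicate 2 was also the library with by far the most adipocyte marker RNA, and the only mutant-labelled library with Xist, as given above. Among control-labelled libraries, replicate 1 had the most adipocyte marker RNA and the lowest Slc16a1. The part of adipocyte RNA or of Xist status in the Slc16a1 values was not tested.

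**Figure D2:**
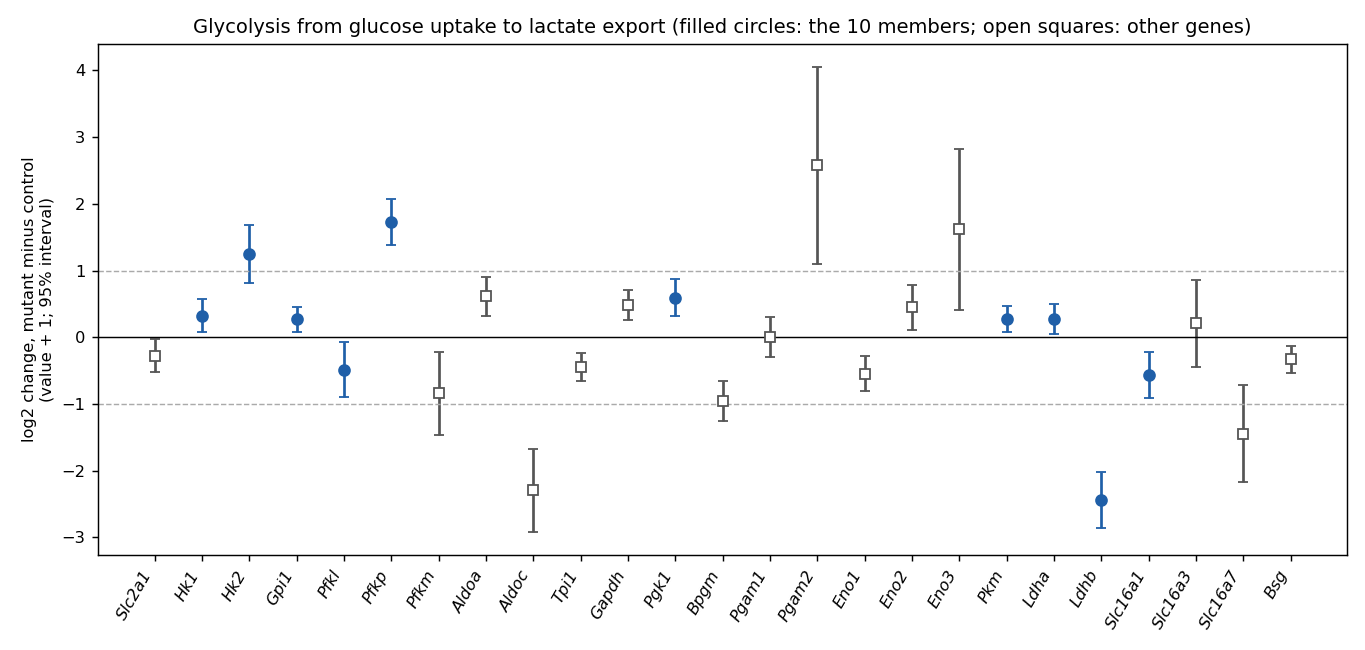
Fitted log2 change, mutant-labelled minus control-labelled (vertical axis, on value + 1), for genes from glucose uptake (left) to lactate export (right), with 95% intervals. Filled circles are the 10 members, open squares other isoforms and steps, and dashed lines mark 2-fold. Ldhb at -2.44 and Pfkp at 1.73 are the farthest members from 0 in each direction.

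The balance between isozymes was then compared within each library, which does not depend on how libraries are scaled. The log2 ratio of Ldhb to Ldha was -0.98, -1.22 and -0.95 in control-labelled libraries and -3.33, -4.08 and -3.87 in mutant-labelled ones. The mean difference of -2.71 corresponds to 6.55-fold less Ldhb relative to Ldha, and the groups were far apart compared with their SDs of 0.15 and 0.38. The log2 ratio of Pfkp to Pfkl went from -0.63, -0.97 and -1.16 to 1.55, 0.98 and 1.34, a difference of 2.21 or 4.64-fold. The log2 ratio of Hk2 to Hk1 went from -3.71, -4.28 and -4.06 to -3.36, -3.21 and -2.70, a difference of 0.93 or 1.90-fold. Each of the 3 ratios separated the groups without overlap and had an exact two-sided permutation p of 0.1, the smallest that 3 libraries against 3 allow, with an adjusted p of 0.1 over the 3 ratios. The ratios reuse the member values above and are no separate evidence. Ldhb was lower and Ldha higher in every mutant-labelled library, so that ratio had to separate the groups. The share of all gene pairs whose ratio separates the groups was not computed. Leaving out any 1 library kept the difference between -2.93 and -2.55 for Ldhb to Ldha, between 2.08 and 2.37 for Pfkp to Pfkl, and between 0.73 and 1.08 for Hk2 to Hk1.

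**Figure D3:**
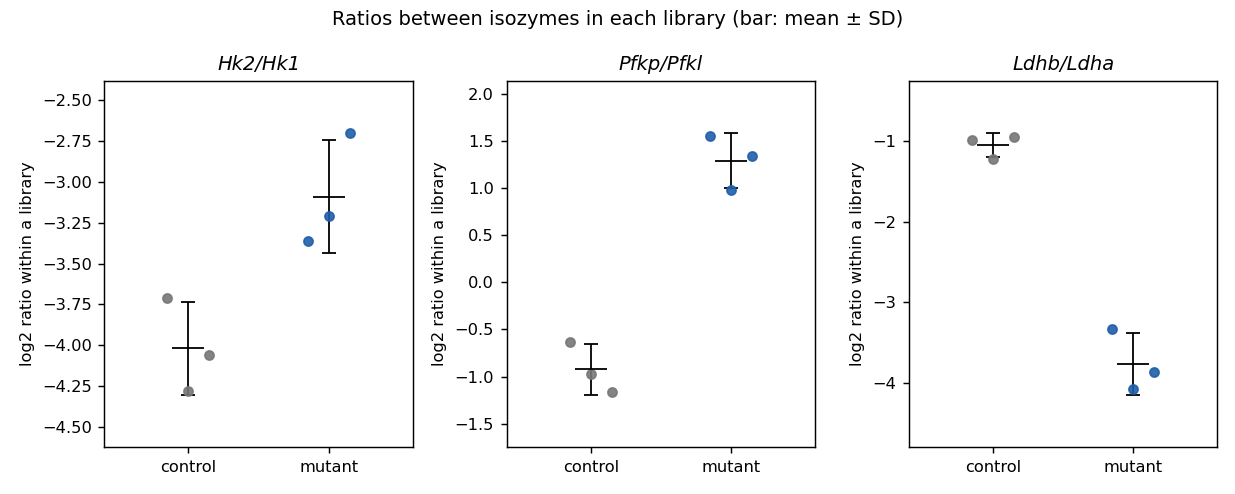
Log2 ratio of 1 isozyme gene to its partner within each library (vertical axes), by label, with points for replicates 1, 2 and 3 and a bar for mean ± SD. The groups do not overlap in any of the 3 panels, and the difference is widest for Ldhb to Ldha, at -2.71.

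The other genes of glycolysis and lactate transport moved in both directions. Of 23 tested, 6 rose and 9 fell past the adjusted threshold, where 19% of all tested genes rose and 16% fell, and the median log2 change was -0.27. Among the steps that have 1 main gene, Gapdh rose by 0.49 ± 0.10 (adjusted p = 0.00618), whereas triosephosphate isomerase Tpi1 fell by 0.44 ± 0.09 (adjusted p = 0.00696), both in limma. Enolase Eno1 read 18664, 24110 and 22127 against 15928, 14795 and 13523, a log2 change of -0.55 (limma, adjusted p = 0.00709). Pgam1, the phosphoglycerate mutase of most tissues, had a log2 change of 0.01 (95% interval -0.29 to 0.30). The glucose transporter Slc2a1 had a change of -0.27 with an adjusted p of 0.0821 in limma, and Slc16a3, the lactate exporter MCT4, of 0.21 with an adjusted p of 0.599.

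Several isoforms changed by more than 2-fold. The brain-type aldolase Aldoc read 269, 269 and 378 against 54.6, 71.4 and 57.4, a log2 change of -2.29 (limma, adjusted p = 0.000412). The monocarboxylate transporter Slc16a7 (MCT2) changed by -1.44 and the glucose transporter Slc2a8 by -1.16. Basigin (Bsg), the chaperone that carries MCT1 to the membrane, fell by 0.33 on the log2 scale (limma, adjusted p = 0.0212, or 0.137 with libraries scaled to the same total), while its relative embigin (Emb) rose by 1.15 (adjusted p = 0.0166). The Bsg call was also lost without control replicate 2 or 3 or mutant replicate 2 or 3 (adjusted p 0.0514 to 0.0816), and that of Emb without control replicate 2 or mutant replicate 2 (adjusted p 0.0562 and 0.05, the latter just above the threshold).

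Among the mutant-labelled libraries, several isoforms known from muscle were highest in replicate 3, the library with the most muscle marker RNA. Muscle phosphoglycerate mutase Pgam2 read 441, 130 and 316 in control-labelled and 1381, 686 and 4101 in mutant-labelled libraries, and muscle enolase Eno3 read 1347, 1120 and 1408 against 1731 to 10216, the highest again in mutant replicate 3. Their log2 changes were 2.58 and 1.62 (limma, adjusted p = 0.0152 and 0.0435). Without mutant replicate 3 the change of Pgam2 was 1.88 (adjusted p = 0.0421) and that of Eno3 0.93 (adjusted p = 0.0516). Without mutant replicate 2 they were 3.17 and 2.21 (adjusted p = 0.00917 and 0.00778). The Eno3 call was also lost without any control-labelled library or mutant replicate 1 (adjusted p 0.0889 to 0.112). Aldoa, the aldolase of muscle and most other tissues, read 24866, 27803 and 25966 against 38291, 34710 and 48404 and rose by 0.61 ± 0.13 (limma, adjusted p = 0.00667). Within the mutant-labelled group, the summed skeletal muscle markers had the same order as Pgam2, Eno3, Aldoa, Pfkm and the member Hk2. Within the control-labelled group, Pgam2 and Hk2 had the order of the muscle markers. Aldoa had the reverse order there, and Eno3 and Pfkm had neither. Pfkm also fell between the groups while the muscle markers rose. No marker of that list was at 0 in any library, and the part of muscle in these values was not tested.

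**Figure D4:**
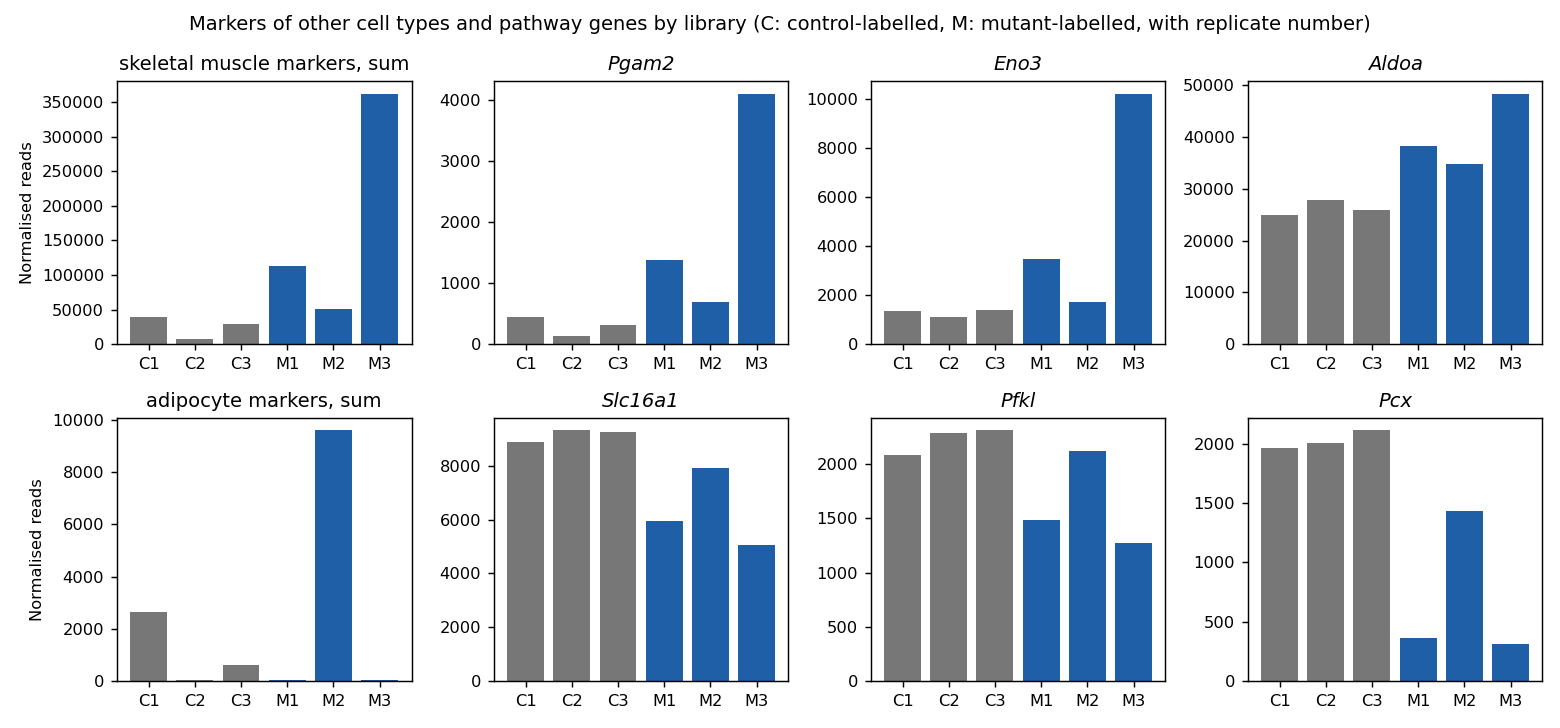
Normalised reads in each library (bars from 0, control-labelled in grey and mutant-labelled in blue) of the summed skeletal muscle markers beside Pgam2, Eno3 and Aldoa (top), and of the summed adipocyte markers beside Slc16a1, Pfkl and Pcx (bottom). Mutant replicate 3 has the highest bar in every top panel, and mutant replicate 2 has the highest mutant-labelled bar in every bottom panel. Among control-labelled bars, replicate 1 is highest for the adipocyte sum but lowest for Slc16a1, Pfkl and Pcx.

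Phosphofructokinase is switched on by fructose-2,6-bisphosphate, which the PFKFB enzymes make and remove. Of 7 tested genes that set the fructose bisphosphates, 3 rose and none fell under the adjusted rule, by which 19% of all tested genes rose and 16% fell, with a median log2 change of 0.97. Pfkfb3, whose product mainly makes this activator, read 322, 249 and 260 against 1028, 669 and 796, a change of 1.57 ± 0.20 (limma, adjusted p = 0.00063). Pfkfb4 read 487, 335 and 388 against 1543, 1675 and 2258, a change of 2.17 ± 0.20 (limma, adjusted p = 9.72e-05). In both genes every mutant-labelled library lay well above the controls. The other riser, Fbp2, encodes the muscle fructose-1,6-bisphosphatase, which works in the reverse direction, and read 143, 96.5 and 595 in mutant replicates 1, 2 and 3 against 18.9 to 55.5 in controls (log2 change 2.72, limma, adjusted p = 0.0170). Its call was lost without control replicate 2 or 3 (adjusted p 0.0556 and 0.0524), and without mutant replicate 3 its change was 1.94 (adjusted p = 0.0477).

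Downstream of glycolysis, pyruvate enters mitochondria through a carrier and is fed to the citrate cycle by pyruvate dehydrogenase and pyruvate carboxylase. Of 15 tested genes, 3 rose and 5 fell (19% and 16% of all tested genes), which became 6 and 4 with libraries scaled to the same total. Pcx, pyruvate carboxylase, read 1965, 2009 and 2115 against 360, 1431 and 309, a log2 change of -1.90 (limma, adjusted p = 0.0183), with mutant replicate 2 far above the other two mutant-labelled libraries. Its call was lost without control replicate 1 or 3 or mutant replicate 1 or 3 (adjusted p 0.0502 to 0.0709), whereas without mutant replicate 2 the change was -2.60 with an adjusted p of 8.86e-05. Of the 4 pyruvate dehydrogenase kinases, which switch that complex off, 1 fell and 1 rose, while Pdk1 (log2 change -0.56, limma, adjusted p = 0.0808) and Pdk3 (0.23, adjusted p = 0.162) did not pass. Pdk2 read 1514, 1803 and 1568 against 599, 541 and 766 (log2 change -1.37, limma, adjusted p = 0.000358), whereas Pdk4 read 258, 204 and 359 against 480, 632 and 955 (log2 change 1.31, limma, adjusted p = 0.00969).

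The pentose phosphate pathway, which branches off at glucose-6-phosphate and supplies NADPH, had 1 gene higher and 4 lower of 8 tested (19% and 16% of all tested genes), with a median log2 change of -0.29. Transketolase Tkt fell from 31066, 32311 and 35188 to 13482, 11544 and 11540, a log2 change of -1.43 ± 0.10 (limma, adjusted p = 2.5e-05). Transaldolase Taldo1 fell from 14441, 16268 and 16721 to 7637, 6986 and 7047, a change of -1.13 ± 0.09 (limma, adjusted p = 5.8e-05). The spread within each group was small beside both differences. In the shuttles that carry cytosolic reducing equivalents into mitochondria, which regenerate the NAD that lactate dehydrogenase would otherwise regenerate, 1 of 10 rose and 4 fell (19% and 16% of all tested genes). The leading gene was Gpd1l, glycerol-3-phosphate dehydrogenase 1-like, with a change of -1.39 (limma, adjusted p = 0.000534). Of 14 glycogen genes, 2 rose and none fell (19% and 16% of all tested genes), against 1 and 3 with libraries scaled to the same 75th percentile. Phkg1, the muscle phosphorylase kinase subunit, passed the 2-fold rule only, at 48.7, 29.9 and 168 in mutant replicates 1, 2 and 3 (log2 change 2.26, limma, adjusted p = 0.0905). Without control replicate 2 or mutant replicate 3 the change of Phkg1 was 1.35 or 1.55 (limma, adjusted p = 0.227 and 0.279).

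**Figure D5:**
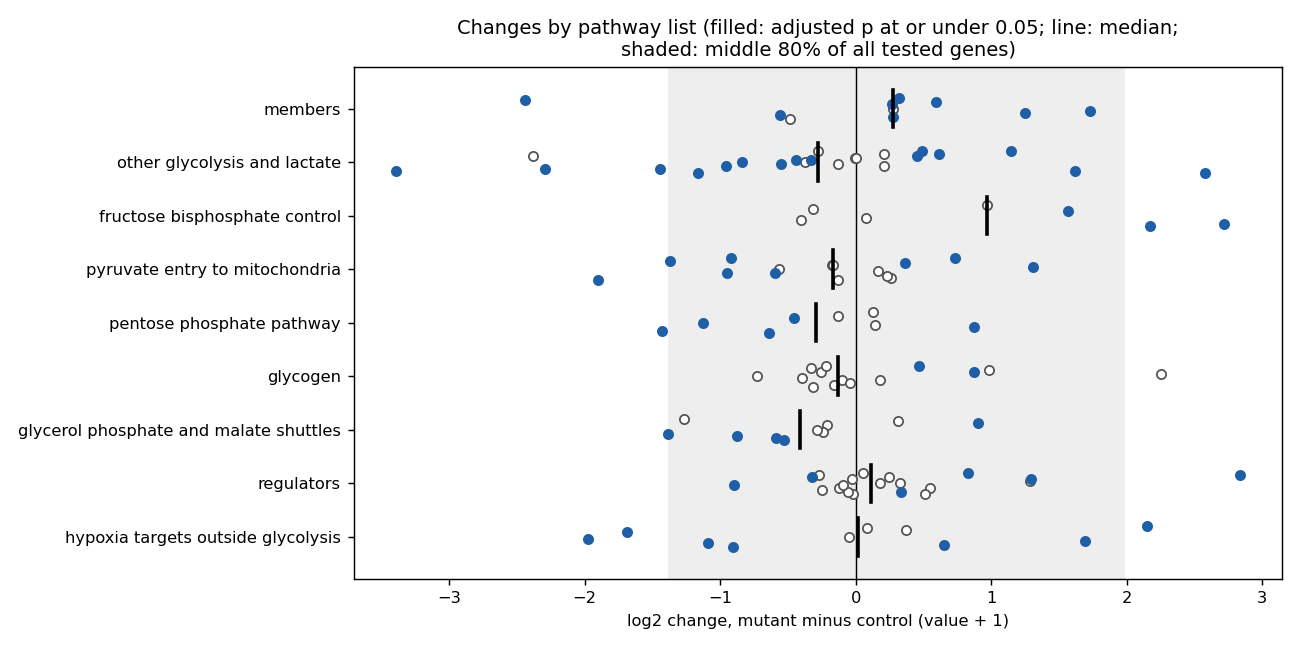
Fitted log2 change of each tested gene (horizontal axis, mutant-labelled minus control-labelled) in the 10 members and 8 related gene lists. Filled points passed an adjusted p of 0.05, black lines are list medians and the shaded band spans the middle 80% of all tested genes, from -1.38 to 1.98. The medians run from -0.41 for the shuttles to 0.97 for the fructose bisphosphate genes, and 7 of the 10 members lie between -1 and 1.

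Among 20 tested regulators of the pathway, 4 rose and 2 fell, or 3 and 3 at the same 75th percentile, counts to be read against the 19% and 16% of all tested genes. Myc, a transcription factor known to act on many glycolysis genes, read 1333, 981 and 1067 in control-labelled and 8708, 6966 and 8433 in mutant-labelled libraries. Its log2 change of 2.84 ± 0.14 exceeded that of every member (limma, adjusted p = 6.59e-06). Hif1a, the inducible hypoxia factor, had a change of 0.05 (95% interval -0.19 to 0.30, limma, adjusted p = 0.745), which concerns its mRNA and not its protein, the level at which oxygen acts. Prkaa1, a catalytic subunit of the energy sensor AMPK, rose by 1.30 ± 0.13 (limma, adjusted p = 0.000143).

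Gene patterns closest to the members with the largest changes were found by the root mean square distance between centred log2 values over the 6 libraries. For Ldhb these were Csrp2 (distance 0.0586), Lpcat1 (0.0806) and Galc (0.0808), all lower in every mutant-labelled library. For Pfkp they were Tmem173 (0.0894), Tmem229b (0.101) and Sik1 (0.108), all higher in every mutant-labelled library. Csrp2, for example, read 33951, 33195 and 36664 against 9319, 4966 and 6724, with replicate 2 lowest and replicate 1 highest among the mutant-labelled libraries, as in Ldhb. These genes were picked for their small distance, so their likeness to Ldhb or Pfkp comes from that choice. This is a description of 6 libraries in 2 groups.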

How the data were processed

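Poly-A RNA of P4 sciatic nerves was sequenced as oriented paired-end libraries. According to the study's methods and the submitters' processing notes, the authors mapped reads with STAR 2.4.0 to mm10, counted those on constitutive regions of FAST DB v2018_1 genes and scaled the counts with DESeq size factors. The deposited table holds these scaled reads, a signal on a linear scale, for 59485 genes (35979 without a symbol) in 6 libraries. In each library 100% of the deposited signal values were whole multiples of 1 read (tolerance 0.01 of a read), and about 75% of low multiples were even. Precision was therefore lower than the totals of 50938349 to 78250094 reads per library imply.

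Values were tested as log2(value + 1) with limma 3.58.1 (R 4.3.3; lmFit, then eBayes with trend) over all 25802 genes with a mean of at least 10 in 1 group or more, with Benjamini-Hochberg adjustment. Fold changes on this scale understate those of low genes. Called genes had p at most 0.05 and a 2-fold change, or an adjusted p at most 0.05. Ratios were tested by exact permutation with scipy 1.17.1. With 1 library per animal, p-values measure the spread between animals. Replicate numbers did not pair libraries (correlations of deviations of same-numbered libraries -0.06, -0.06 and 0.01), so the fit without a block was kept.

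The members and gene lists were chosen with earlier results of these data known. Named were all members, 10 fixed pathway genes, up to 6 genes per list that passed the 2-fold rule without overlap between groups, and the 3 genes nearest in pattern to each of the 2 members with the largest change. 1 gene that this rule names is not reported here. Marker lists are given as counts and sums. Alternatives were pseudocounts of 0.1 and 10, no filter or a minimum mean of 50, scaling to the same total or 75th percentile, unweighted TMM factors, eBayes without trend, the replicate block, each library left out, and, on whole reads recovered from the deposited table, edgeR 4.0.16 and DESeq2 1.42.0. The last pair ran on 5 libraries without mutant replicate 3, because an automated test of read steps did not accept its step of 0.989, which is close to 1, although its values were whole multiples as in the other libraries. The fits were tested on simulated data. Promoter windows are from RefSeq.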

Additional observations from a re-analysis of the deposited data

How the results depend on the processing

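None of the 170 member changes under 17 alternatives turned direction. The filter settings, eBayes without trend and the replicate block leave the fitted change as it is, so they could not turn it. They alter only the p-values. Hk2, Pfkp, Pgk1 and Ldhb kept their adjusted calls in all 17 alternatives. Members called higher by adjusted p numbered 3 instead of 6 without the filter on low values, at the same 75th percentile, under eBayes without trend and with the replicate block, and 3 to 4 when 1 library was left out. They numbered 7 at a minimum mean of 50 and at the same total. With the replicate block the adjusted p was 0.0781 for Hk1, 0.1 for Gpi1 and 0.0927 for Pkm. Members called lower numbered 1 instead of 2 when scaled to the same total, under eBayes without trend and in edgeR on 5 libraries, and 1 to 3 when 1 library was left out. Under eBayes without trend, the other glycolysis and lactate genes had 7 calls instead of 15, pyruvate entry 5 instead of 8 (also 5 in edgeR, and 5 to 7 with 1 library left out) and glycogen 1 instead of 2 (also 1 in edgeR, 4 at the same 75th percentile, and 1 to 3 with 1 library left out). The cause was not tested. Scaling to the same total moved the median change of all tested genes from 0.03 to 0.19 and the share of higher among adjusted calls from 54.3% to 67.0%, and the 75th percentile moved the median to -0.03 and that share to 48.6%. TMM, edgeR and DESeq2 on the reads of all 6 libraries were not run, since the test of read steps did not accept mutant replicate 3, whose values were nevertheless whole multiples of 1 read. Unweighted TMM and both count tests on 5 libraries were chosen in their place after seeing the data; edgeR called 6691 and DESeq2 8578 of all tested genes by adjusted p, against 7295 in limma on the same 5 libraries and 9040 on all 6. With 3 libraries a group, the 1.20 to 1.26-fold differences of Hk1, Gpi1, Pkm and Ldha lay close to the threshold.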

Other observations

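Genes that respond to hypoxia but lie outside glycolysis moved in both directions. Of 10 tested, 3 rose and 4 fell by adjusted p, by which 19% of all tested genes rose and 16% fell, with a median log2 change of 0.02. The growth factor Vegfa read 4191, 3250 and 3122 in control-labelled and 15828, 13678 and 17075 in mutant-labelled libraries, a log2 change of 2.15 ± 0.14 (limma, adjusted p = 1.82e-05), and the vasodilator peptide gene Adm rose by 1.69 (limma, adjusted p = 0.00168). Ndrg1, which is also strongly expressed by SCs, read 19899, 19875 and 20861 against 6683, 3858 and 5254, a log2 change of -1.98 (limma, adjusted p = 9.04e-05). Mxi1, a MYC antagonist, changed by -1.09 (limma, adjusted p = 0.000438), and Ankrd37 by -1.69 (limma, adjusted p = 0.0373), a call lost when any library but mutant replicate 2 was left out (adjusted p 0.0592 to 0.108).

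Some rows of the table without a symbol overlap members on the same strand. The one within Ldhb read 86.6, 81.3 and 54.5 in control-labelled and 2.91, 3.86 and 13.8 in mutant-labelled libraries, which is small beside the Ldhb values. Those overlapping Hk2, Pkm and Slc16a1 were also low.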
